A study of Mus musculus with 44 samples.

Results

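DNA replication and mitosis genes were followed through organoid RNA-seq of mouse stomach and small intestine. The 36 genes are a fixed list of symbols, matched by name in a table of 19733 gene symbols; all 36 were found, and all 36 passed the filter on low counts in both experiments. In the lines experiment, isogenic C57BL/6 gastric organoid lines had been transduced with lentivirus to express the intestinal transcription factor CDX2, the intestinal transcription factor HNF4A or the neutral protein GFP (lines 1, 2 and 3 of each construct), and 2 lines of untransduced C57BL/6 small intestine organoids were sequenced beside them. In the enhancer experiment, all 9 libraries came from C57BL/6 stomach antrum organoids that overexpressed HNF4A. An enhancer downstream of Cdx2, on its 3′ side, had been deleted in the germline with CRISPR-Cas9, and 3 libraries each were wild type, heterozygous and homozygous for that deletion, so that the wild-type group is also an HNF4A-overexpressing one. The sources used here do not give the transgenes' promoter, the age of the mice or how many animals stand behind the libraries. Another field of the transduced lines' labels names small intestine; the titles and the tissue tag were followed.

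Proliferating cells copy their DNA once and then divide it. Before S phase, the loading factors Cdc6 and Cdt1 place the Mcm2 to Mcm7 helicase ring on replication origins, and ribonucleotide reductase and thymidylate synthase supply nucleotides as the fork moves. Cyclin A2 and cyclin B proteins then drive Cdk1, the Aurora and Polo kinases build the spindle, and Cdc20 turns on the anaphase-promoting complex once the checkpoint proteins Bub1 and Bub1b are satisfied. In the gut epithelium these transcripts belong to dividing stem and progenitor cells, and cells lose them as they differentiate. E2F factors are known to act on the S-phase genes, and the DREAM and MuvB complexes on the G2 and mitosis genes, through the element known as CHR.

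Promoter sequences of 6 members are shown with the letters of these elements marked. RefSeq promoter windows (GRCm38.p6, 250 bases before to 50 bases after the annotated start) were matched by symbol for 29 of the 36 members, with 30 windows in all. The 190 bases just before the start are printed 5′ to 3′ on the gene's strand for a pair of helicase genes and for 4 genes of the G2 and mitosis program, because both groups are followed below. Capitals mark exact matches on either strand to the CHR words TTTGAA or TTCGAA, to CCAAT, and to the E2F words TTTCCCGC, TTTCGCGC, TTTGCCGC or TTTGGCGC. E2F words on opposite strands can overlap, and their capitals then run together.
Mcm5: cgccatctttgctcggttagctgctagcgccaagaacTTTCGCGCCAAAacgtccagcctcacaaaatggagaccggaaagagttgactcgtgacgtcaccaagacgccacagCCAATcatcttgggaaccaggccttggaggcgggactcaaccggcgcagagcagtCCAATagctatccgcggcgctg
Mcm6: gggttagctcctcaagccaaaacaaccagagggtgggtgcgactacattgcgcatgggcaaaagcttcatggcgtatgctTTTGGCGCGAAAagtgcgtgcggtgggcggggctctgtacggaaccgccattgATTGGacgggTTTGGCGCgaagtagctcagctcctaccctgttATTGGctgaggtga
Cdk1: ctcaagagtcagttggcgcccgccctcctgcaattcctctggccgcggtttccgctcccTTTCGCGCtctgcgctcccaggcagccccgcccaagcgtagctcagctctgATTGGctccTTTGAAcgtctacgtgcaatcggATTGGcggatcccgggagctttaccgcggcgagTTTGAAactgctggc
Ccnb1: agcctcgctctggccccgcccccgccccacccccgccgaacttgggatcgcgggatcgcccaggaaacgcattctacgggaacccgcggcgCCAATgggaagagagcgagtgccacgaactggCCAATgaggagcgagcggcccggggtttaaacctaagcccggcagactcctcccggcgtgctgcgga
Mki67: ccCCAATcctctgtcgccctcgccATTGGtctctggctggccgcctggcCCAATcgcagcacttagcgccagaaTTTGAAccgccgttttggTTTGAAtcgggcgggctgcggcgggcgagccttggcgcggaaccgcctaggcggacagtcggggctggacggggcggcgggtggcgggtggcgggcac
Cdc20: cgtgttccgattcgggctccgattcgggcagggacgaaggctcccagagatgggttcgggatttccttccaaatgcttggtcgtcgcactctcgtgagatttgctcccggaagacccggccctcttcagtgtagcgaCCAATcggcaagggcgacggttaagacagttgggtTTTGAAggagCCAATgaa
The windows lie at chr8:75109319-75109508 on the plus strand (Mcm5), chr1:128359706-128359895 on the minus strand (Mcm6), chr10:69352913-69353102 on the minus strand (Cdk1), chr13:100786487-100786676 on the minus strand (Ccnb1), chr7:135716380-135716569 on the minus strand (Mki67) and chr4:118437344-118437533 on the minus strand (Cdc20).

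The Mcm5 and Mcm6 windows hold E2F words and no CHR word, those of Mki67 and Cdc20 hold CHR words and no E2F word, that of Cdk1 holds both, and that of Ccnb1 holds 2 CCAAT boxes and neither of the others. The printed pair does not stand for all helicase genes. In the full windows Mcm3 also holds E2F words and no CHR word. Mcm2 holds a CHR word and no E2F word, and a window of Mcm7 holds both. Over the full windows, an E2F word occurred in 7 of 30 member promoters (23.3%) and in 2.26% of all 32851 promoters in the table. A CHR word occurred in 13 of 30 (43.3%, against 19.2% of all), and all 13 also held CCAAT, a combination found in 7.52% of all promoters. CCAAT occurred in 22 of 30 (73.3%, against 37.4% of all). These are letter matches and not measured binding.

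Per library, between 6180498 and 11007809 counts were assigned in the lines and between 8173640 and 11465309 for the enhancer deletion, and the lowest member count in any library was 35. Values are given as CPM, which are counts over the TMM-adjusted library size, which compare libraries for a gene but not genes of different length. Cdx2 ran from 62.0 to 288 CPM in the CDX2 lines against 3.19 to 7.44 in the GFP lines, and Hnf4a from 289 to 502 in the HNF4A lines against 95.7 to 158. In homozygous libraries Cdx2 ran from 0.199 to 1.36 CPM, against 16.7 to 58.5 in wild type. The stomach markers Muc5ac and Sox2 had 0 counts in both small intestine libraries, and Lct, a lactase gene of the villus, was at most 1.21 CPM in any library. A lower level in a bulk library can come from fewer dividing cells or from less RNA per cell, and the 2 cannot be told apart here. Nothing in the labels says that libraries of a group came from separate animals, so p-values measure the spread between these libraries.

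**Figure D1:**
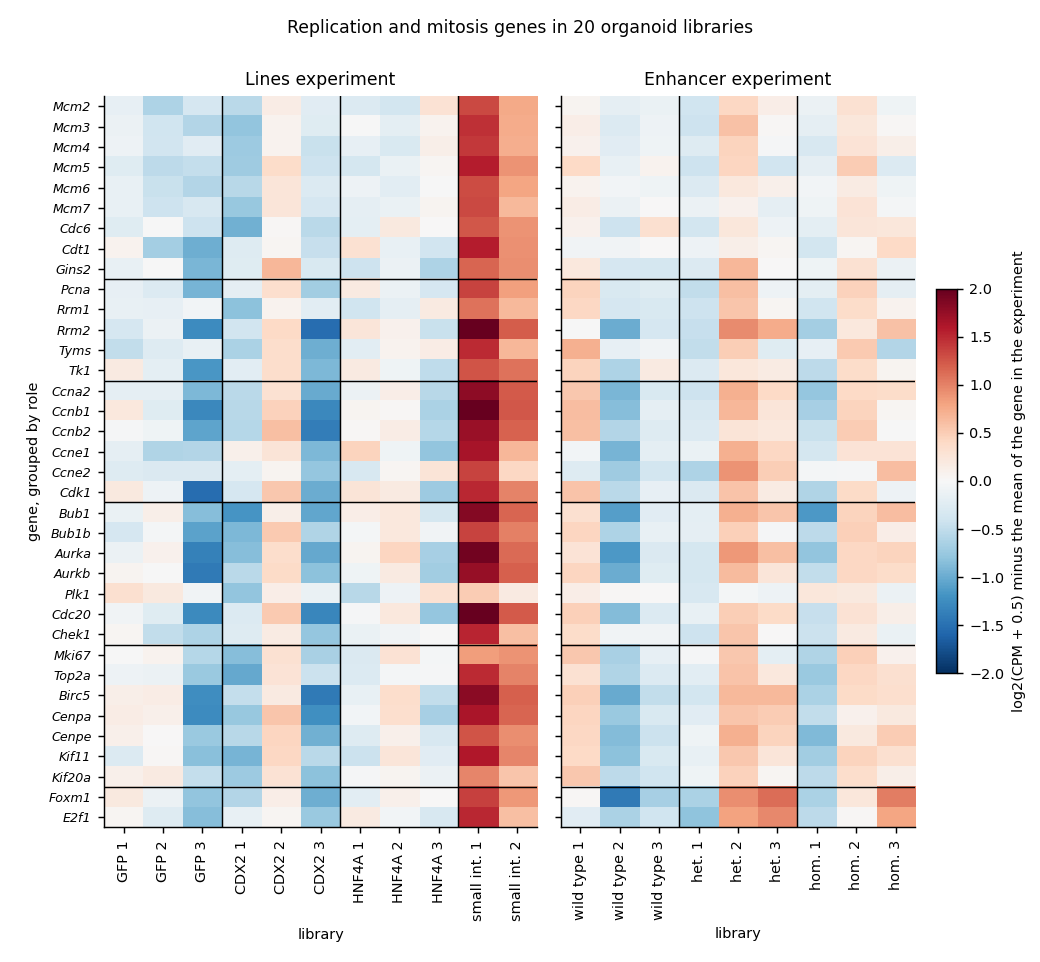
Each cell is the log2(CPM + 0.5) of a gene (vertical axis, grouped by role) in a library (horizontal axis) minus the gene's mean over the libraries of that experiment. Both small intestine libraries are red for nearly every gene. Some columns lie almost wholly on one side, such as CDX2 line 2 on the red side and CDX2 line 3 and GFP line 3 on the blue side. Others, such as HNF4A lines 1 and 3, hold both colours.

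Small intestine organoids held more transcript of these genes than gastric organoids carrying GFP. All 36 values were above 0, with a median of 1.52 on the log2 scale against -0.01 over the 12720 genes tested, and 35 of 36 members were higher in both small intestine libraries than in all 3 GFP lines (30.4% of all genes were). The edgeR quasi-likelihood test with Benjamini-Hochberg adjustment called 31 of 36 higher at an adjusted p under 0.05 and 0 lower, where 27.1% of all genes were called and 14.2% were called higher. DESeq2 called 34, against 35.3% of all genes in either direction. Small intestine line 1 was above line 2 for 35 of the 36 members, and the exception was Mki67.

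Origin licensing and helicase genes were called in 9 of 9 cases, with log2 fold changes from 1.32 (Cdc6) to 1.75 (Cdt1). Mcm6, a subunit of the helicase ring, was at 110.4, 89.7 and 81.7 CPM in GFP lines 1, 2 and 3 and at 302 and 212 CPM in the small intestine lines. Both small intestine libraries lay above the highest GFP line, and the log2 fold change was 1.45 ± 0.25 (SE; edgeR adjusted p = 0.00412). Mcm5 was at 63.8, 52.2 and 53.9 CPM in GFP and at 225 and 142 CPM in small intestine, a change of 1.70 ± 0.31 (edgeR adjusted p = 0.00506). Mcm2 was at 79.7, 58.4 and 71.3 CPM against 226 and 153 CPM, a change of 1.44 ± 0.27 (edgeR adjusted p = 0.00610). The groups did not overlap for any of these subunits. Mcm3, Mcm4 and Mcm7 rose by 1.504 ± 0.28, 1.35 ± 0.27 and 1.32 ± 0.28 (edgeR adjusted p of 0.00536, 0.00700 and 0.00913). Cdt1, which loads the ring on origins, was at 38.9, 22.9 and 18.6 CPM in GFP and at 111 and 69.8 CPM in small intestine, a change of 1.75 ± 0.34 (edgeR adjusted p = 0.00663). Its partner Cdc6 was lower in count, at 15.2 to 20.2 CPM against 49.0 and 38.3 CPM, a change of 1.32 ± 0.29 (edgeR adjusted p = 0.0101).

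Clamp and nucleotide synthesis genes were called in 5 of 5 cases. Rrm2, the regulated subunit of ribonucleotide reductase, had the largest value of the 36. It was at 41.2, 48.2 and 21.6 CPM in GFP and at 233 and 121 CPM in small intestine, a log2 change of 2.26 ± 0.52 (edgeR adjusted p = 0.0125). Rrm1, the other subunit, was at 121 to 130.2 CPM in GFP and at 287 and 211 CPM in small intestine, and its change of 1.00 was the smallest of these 5. Pcna, the sliding clamp of the replication fork, was at 99.9, 93.1 and 59.0 CPM in GFP and at 287 and 199 CPM in small intestine, a change of 1.53 ± 0.32 (edgeR adjusted p = 0.00892).

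Cyclins and Cdk1 were called in 5 of 6 cases. Ccna2, the cyclin of S and G2 phase, was at 76.0, 76.0 and 46.3 CPM in GFP and at 300.2 and 203 CPM in small intestine, a change of 1.93 ± 0.38 (edgeR adjusted p = 0.00716). Ccnb1, the mitotic cyclin, was at 54.2, 39.7 and 18.9 CPM against 190.3 and 112 CPM, a change of 2.01 ± 0.53 (edgeR adjusted p = 0.0213). GFP line 3 was the lowest GFP library for both cyclins, and no GFP line reached a small intestine value. Of the checkpoint and mitotic kinases with the activator Cdc20, 6 of 7 were called. Cdc20 was at 62.4, 55.3 and 27.1 CPM in GFP and at 268 and 154 CPM in small intestine. Both transcription factors, Foxm1 and E2f1, were called, and Foxm1 was at 31.5, 25.1 and 15.7 CPM against 71.0 and 50.4 CPM.

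Chromosome, centromere and spindle genes were called in 4 of 7 cases. Top2a, the topoisomerase that untangles sister chromatids, was at 225, 221 and 143 CPM in GFP and at 681 and 478 CPM in small intestine, a change of 1.56 ± 0.35 (edgeR adjusted p = 0.0109). Mki67, the gene of the Ki-67 antigen that coats mitotic chromosomes, was at 269, 282 and 181 CPM against 481 and 502 CPM. Its groups did not overlap either, but its change of 1.01 ± 0.34 missed the threshold (edgeR adjusted p = 0.0505).

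The 5 members that were not called are named here after their values were seen: Mki67, Cdk1 (1.60), Cenpa (1.64), Kif20a (0.82) and Plk1 (0.20). Plk1, the Polo kinase of mitotic entry, stood lowest in all 3 comparisons with small intestine. It was at 135, 123.3 and 103 CPM in GFP and at 154 and 122.8 CPM in small intestine, and its groups overlapped. The interval of 2 SE on either side of its change with GFP ran from -0.40 to 0.80.

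**Figure D2:**
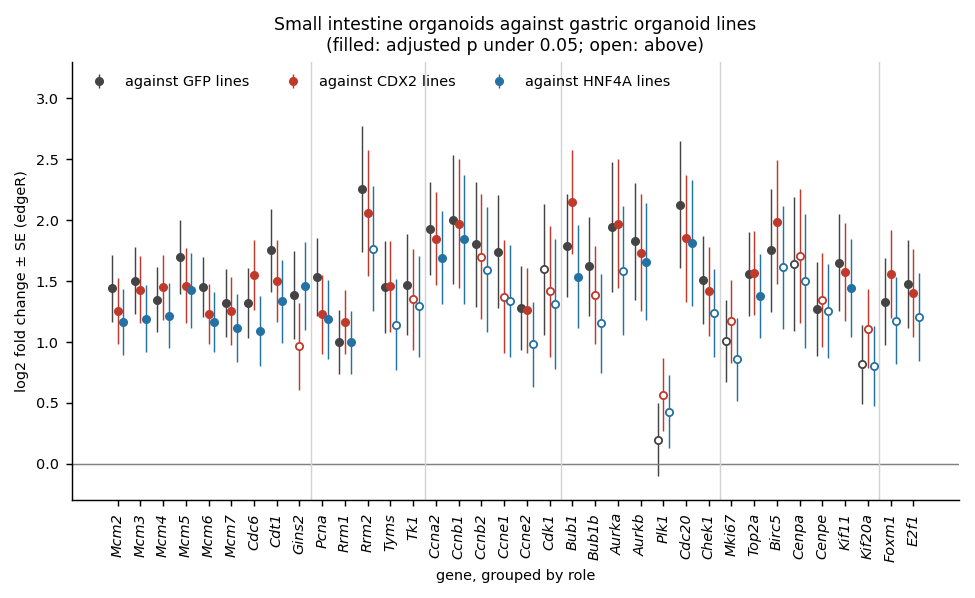
Points are edgeR log2 fold changes (vertical axis) of small intestine organoids against each gastric group for the 36 genes (horizontal axis), and bars are 1 SE. All points lie above 0, Plk1 is the lowest gene in each colour, and filled points were called at an adjusted p under 0.05.

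Against the other gastric groups the same small intestine libraries gave like values, and the 3 comparisons share them. Against the CDX2 lines, the median was 1.44, 36 of 36 members did not overlap (24.2% of all genes were higher without overlap), and edgeR called 25 higher (11.3% of all genes called, 5.63% higher) and DESeq2 33 (21% of all genes). Against the HNF4A lines, the median was 1.27, 35 of 36 did not overlap (25.5% of all genes), and edgeR called 18 higher (12.5% of all genes called, 5.83% higher) and DESeq2 31 (21.9% of all genes). Licensing and helicase genes were called in 8 and 9 of 9 cases, chromosome, centromere and spindle genes in 3 and 2 of 7, and the transcription factors in 2 and 0 of 2. Mcm4 was at 46.8, 81.8 and 57.3 CPM in CDX2 lines 1, 2 and 3 and at 69.9, 63.3 and 85.1 CPM in HNF4A lines 1, 2 and 3, with 208 and 130 CPM in small intestine. Its changes were 1.45 ± 0.27 and 1.22 ± 0.27 (edgeR adjusted p of 0.0132 and 0.0218). Bub1, a kinase of the spindle checkpoint, had the largest change from the CDX2 lines, from 11.6, 29.1 and 12.8 CPM to 97.0 and 61.0 CPM (2.15 ± 0.43, edgeR adjusted p = 0.0178). Gins2, a subunit that joins the helicase at the fork, was called against HNF4A (1.46 ± 0.36, edgeR adjusted p = 0.0321) and not against CDX2 (0.96 ± 0.36, edgeR adjusted p = 0.106). CDX2 line 2, at 25.7 CPM, was the highest gastric library for Gins2, while the small intestine lines held 36.8 and 31.1 CPM. The difference between these 2 changes is the CDX2 against HNF4A comparison given below, where Gins2 was not called.

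The calls rest on small intestine line 1, while the direction does not. Without that line, edgeR called 1 of 36 members against GFP (Mcm6, 1.18, edgeR adjusted p = 0.0449), 0 against CDX2 and 0 against HNF4A, with medians of 1.25, 1.16 and 0.96. Small intestine then holds 1 library and is assumed to vary like the gastric groups. Without small intestine line 2, 29, 23 and 16 were called. Single gastric libraries also moved the counts. Without GFP line 1, 2 or 3 the test called 27, 21 or 21, without CDX2 line 1, 2 or 3 it called 8, 31 or 3, and without HNF4A line 1, 2 or 3 it called 4, 0 or 4. The small intestine libraries also differ in enterocyte transcripts: Alpi was at 12.6 CPM in line 1 and 146 in line 2, and Fabp1 at 2.42 and 23.7. All 10 intestinal markers were higher in both small intestine libraries than in GFP and 5 of 7 gastric markers lower. The fibroblast sum, at 47.4 to 114 CPM, overlapped that of GFP, at 47.7 to 98.7. Fbln1 held most of these sums, at 41.7 and 109 CPM in small intestine and at 40.3, 88.5 and 31.7 CPM in GFP. The part of cell type makeup in the member values was not tested.

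Other genes of replication and mitosis rose with the members in the comparison with GFP. Of 40 further replication genes, 35 were called higher and 0 lower, with a median of 1.37. Mcm10, which activates the loaded helicase, was at 14.3, 13.3 and 10.4 CPM in GFP and at 76.4 and 63.4 CPM in small intestine (2.46 ± 0.30, edgeR adjusted p = 0.00106). Pole, the leading-strand polymerase, rose by 1.91, Pola2 by 1.67, the chromatin assembly gene Chaf1a by 1.62 and Hells by 1.95. Of 44 further mitosis genes, 33 were called higher and 0 lower, with a median of 1.49. Mybl2, the B-Myb factor that works with MuvB, was at 17.9, 18.9 and 11.03 CPM against 133 and 65.5 CPM (2.64 ± 0.42, edgeR adjusted p = 0.00345). Incenp rose by 1.49, Ect2 by 1.77, Smc2 by 1.61, Ttk by 1.66 and Espl1 by 1.59.

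Of 20 genes for G1 cyclins, kinases, pocket proteins and E2F factors, 8 were called higher and 1 lower. E2f2, an activating E2F factor, was at 1.60, 1.38 and 0.245 CPM in GFP and at 16.4 and 23.5 CPM in small intestine (4.18 ± 0.60, edgeR adjusted p = 0.00222). Lin54, the MuvB subunit that contacts CHR elements, rose by 1.79 ± 0.25 (edgeR adjusted p = 0.00204), E2f6 by 1.36, E2f8 by 1.84 and the pocket protein gene Rbl1 by 1.17. Mycn was the gene that fell, from 28.8, 43.9 and 94.7 CPM to 0 and 2.30 CPM (edgeR adjusted p = 0.0125). The D-type cyclin genes Ccnd1 and Ccnd2, which start the G1 program, had values of 0.00 ± 0.37 and 0.15 ± 0.43 and were not called (named after their values were seen).

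Cell cycle inhibitors and p53 targets were called lower in 5 of 15 cases and higher in 1. Of all 12720 genes tested, 1642 were called lower and 1806 higher in this comparison. Cdkn2a, the locus of the p16 and p19 inhibitors, was at 57.9, 42.9 and 36.1 CPM in GFP and at 4.19 and 13.2 CPM in small intestine, and fell by 2.40 ± 0.50 on the log2 scale (edgeR adjusted p = 0.00830). Trp53inp1 fell by 1.41, the antiproliferative gene Btg2 by 1.64, Plk2 by 0.96 and the Cdk inhibitor gene Cdkn1c by 1.76, while Trp53 rose by 0.58. Of 12 stem and progenitor genes, 2 were called higher and 1 lower, a share near the 27.1% of all genes called in this comparison. Myb, a progenitor factor of the intestinal crypt, was at 1.07, 1.81 and 1.72 CPM in GFP and at 47.5 and 58.6 CPM in small intestine (5.11 ± 0.49, edgeR adjusted p = 0.000371). It was also called higher in the CDX2 lines, at 14.9, 25.3 and 6.63 CPM, and in the HNF4A lines, at 14.2, 15.1 and 13.6 CPM. Olfm4, a crypt stem cell gene, was at most 0.245 CPM in GFP and stood at 0.279 and 76.9 CPM in small intestine, so that 1 library holds nearly all of it. Sox9, a progenitor factor, fell by 1.72 ± 0.37 (edgeR adjusted p = 0.00999).

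**Figure D3:**
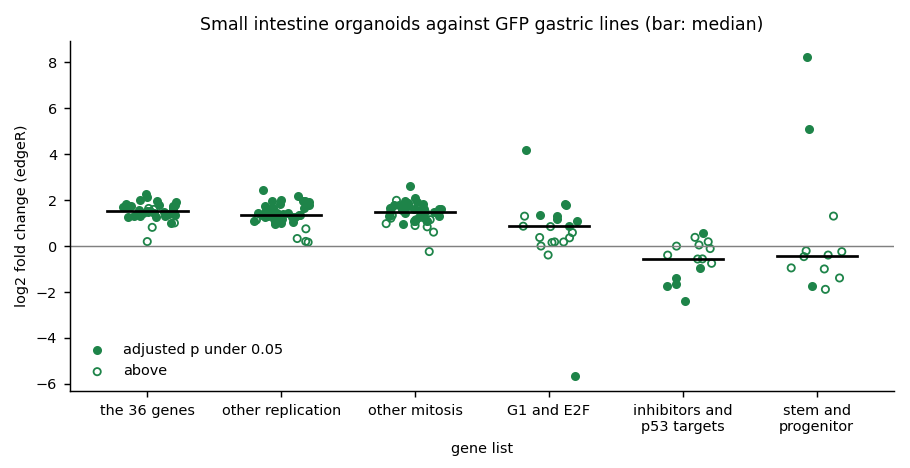
Points are edgeR log2 fold changes (vertical axis) of single genes in small intestine organoids against GFP gastric lines, in 6 lists (horizontal axis). Filled points were called at an adjusted p under 0.05, bars are list medians, and the medians of the members and of the further replication and mitosis genes lie near each other at 1.52, 1.37 and 1.49.

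No member was called when either factor was compared with GFP in gastric organoids. For CDX2 against GFP, edgeR called 0 of 36 members (0.409% of all genes); unadjusted p-values fell under 0.05 for 0 (11.2% of all genes), DESeq2 called 0 (3.88% of all genes), and no member was without overlap between groups (16% of all genes were). The median was 0.07 with 22 values above 0, and 26 of 36 intervals of 2 SE lay within 1 log2 unit of 0 on both sides. The smallest p belonged to Plk1, at 62.6, 119 and 98.6 CPM in CDX2 lines 1, 2 and 3 against 135, 123.3 and 103 CPM in GFP (-0.37 ± 0.27, edgeR adjusted p = 0.695). Next came Gins2 (0.42), Pcna (0.30) and Mcm6 (0.22), with the Mcm6 value at -0.02 without CDX2 line 2. Without that library the median of the members turned to -0.36.

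HNF4A against GFP also gave 0 calls by edgeR (0.142% of all genes). Unadjusted p-values fell under 0.05 for 0 members (5.76% of all genes), DESeq2 called 0 (1.74% of all genes), and no member was without overlap (11.6% of all genes). Here 34 of 36 values were above 0 (33 with RLE scaling), with a median of 0.23 that fell to 0.03 without GFP line 3. The smallest p belonged to Cdt1, at 45.9, 33.4 and 28.3 CPM in HNF4A against 38.9, 22.9 and 18.6 CPM in GFP (0.42 ± 0.31, edgeR adjusted p = 1). Bub1b (0.47), Mcm3 (0.31) and Mcm6 (0.28) followed. Library deviations are shared between lines of the same number, and the SEs given for the gastric comparisons leave this pairing out. With line number as a block Rrm2 was called (0.53 ± 0.13, edgeR adjusted p = 0.0496), 1 of 36 where 8.02% of all genes were called. In that block fit Cdt1 had a value of 0.45 ± 0.12 (edgeR adjusted p = 0.0615). Pcna had a value of 0.36 ± 0.10 (edgeR adjusted p = 0.0706), and neither gene was called. In a block fit over all 9 gastric libraries, 0 members were called.

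CDX2 against HNF4A gave 0 calls by edgeR (0.0236% of all genes). Unadjusted p-values fell under 0.05 for 0 members (5.18% of all genes), and DESeq2 called 0 (1.09% of all genes). The median was -0.17, with -0.58 without CDX2 line 2 and -0.023 without CDX2 line 1, and 35 of 36 values were below 0. The smallest p belonged to Cdc6, at 10.3, 20.6 and 13.9 CPM in the CDX2 lines against 17.7, 23.3 and 20.6 CPM in the HNF4A lines (-0.46 ± 0.26, edgeR adjusted p = 1.00). Bub1 (-0.61), Gins2 (0.49) and Foxm1 (-0.38) followed, and their groups overlapped. No member was without overlap between the groups, where 8.32% of all genes were. The 3 gastric comparisons share their libraries, so the signs of their medians are not independent of each other.

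Libraries of one construct differed from each other in the members. The highest line was 2.29 times the lowest for the median member in CDX2, 1.75 times in GFP and 1.49 times in HNF4A. CDX2 line 2 was the highest CDX2 library for 36 of 36 members, and GFP line 3 the lowest GFP library for 28. HNF4A line 3 was the lowest HNF4A library for 20 members and the highest for 12. Since the libraries carry line numbers in their titles, line number was tested beside the construct over the 9 gastric libraries with edgeR's quasi-likelihood F test on 2 degrees of freedom, a test chosen after the values had been seen. It called 17 of 36 members (34.1% of all 12289 genes tested), and all 17 had line 3 below line 2 (17.3% of all genes were called with that direction). Line 3 was below line 2 for 33 of 36 members, against 49.6% of all genes, with a median of -0.65.

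Each of the 6 role groups held at least 1 call by line number. Of the chromosome and spindle genes 4 of 7 were called, of the kinases and checkpoint genes 4 of 7, of the cyclins with Cdk1 4 of 6, of the clamp and nucleotide genes 3 of 5, of the transcription factors 1 of 2, and of the licensing and helicase genes 1 of 9, which was Gins2. Whether these shares differ was not tested. Cdc20 was at 54.1, 62.4 and 65.1 CPM in line 1 of CDX2, GFP and HNF4A, at 94.5, 55.3 and 76.4 CPM in line 2, and at 26.3, 27.1 and 38.4 CPM in line 3. All 3 libraries of line 3 lay below the other 6, and line 3 minus line 2 was -1.30 (edgeR adjusted p = 0.00680). Birc5, the survivin gene of the chromosomal passenger complex, was at 21.7, 33.1 and 27.3 CPM in line 1, at 34.5, 33.6 and 38.7 CPM in line 2 and at 11.04, 12.5 and 21.4 CPM in line 3 (-1.28, edgeR adjusted p = 0.00919). Line 3 was again the lowest line in each construct. Aurka (-1.34), Cdk1 (-1.31), Ccna2 (-0.92), Cenpa (-1.41), Rrm2 (-1.21), Aurkb (-1.17), Tk1 (-0.90), Ccnb2 (-1.26), Kif11 (-0.77), Pcna (-0.65) and Ccnb1 (-1.19) were called in the same direction. Mki67 (-0.65, edgeR adjusted p = 0.0659) and Top2a (-0.45, edgeR adjusted p = 0.276) were not called, and Mcm2 had a value of 0.17 (edgeR adjusted p = 0.657).

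Of the further lists, 18 of 44 mitosis genes were called by line number, all with line 3 below line 2, and 2 of 40 replication genes were called. Of all genes, 34.1% were called and 17.3% were called with line 3 below line 2. In the other lists, 11 of 20 G1 and E2F genes, 6 of 15 inhibitors and p53 targets and 7 of 11 stem genes were called. Members with an E2F word in the promoter window had a median line 3 minus line 2 of -0.21 (7 genes) and those without of -0.80 (22 genes), while the corresponding medians for small intestine against GFP were 1.504 and 1.59. For the CHR words the medians were -0.83 with (13 genes) and -0.48 without (16 genes), given as a description with no test. The line-number count fell to 5 without GFP line 3, to 8 without HNF4A line 1, to 9 without CDX2 line 3 or HNF4A line 3 and to 11 without GFP line 2. Without the HNF4A lines it was 0, with 154 genes called in all. Other genes moved with line number too. Alpi was at 79.1, 0 and 140.2 CPM in line 1 of CDX2, GFP and HNF4A and at most 0.158 CPM in line 3, Muc6 was at 10.3, 2004 and 228 CPM in line 1 and at 886, 6923 and 4272 CPM in line 3, and Lgr5 was at 44.8, 112 and 67.9 CPM in line 1 and at 197 to 242 CPM in line 3. Their part in the member values was not tested.

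**Figure D4:**
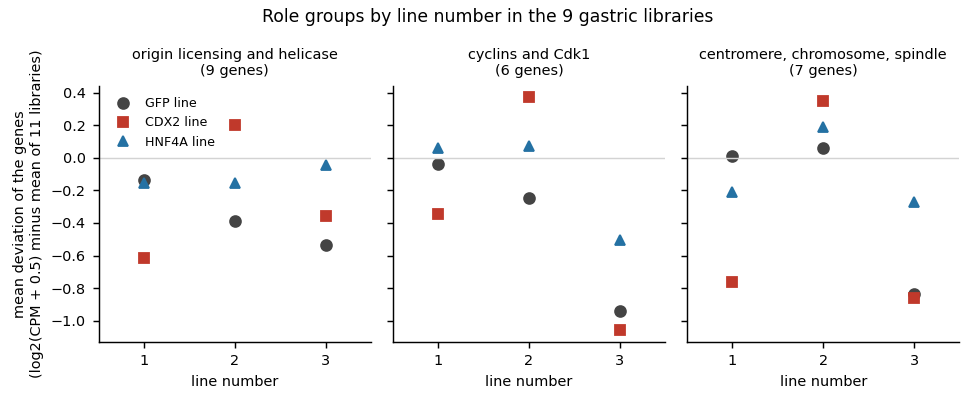
Points are the mean deviation of a role group in a gastric library (vertical axis, log2(CPM + 0.5) minus the mean of the 11 libraries), by line number (horizontal axis) and construct. The cyclin and the spindle groups are lowest in line 3 for each construct, and in the HNF4A lines the licensing and helicase group is highest in line 3.

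Deletion of the Cdx2 enhancer was followed by no called change in the members. Homozygous against wild-type libraries gave 0 calls by edgeR, where 0% of all 12593 genes were called. Cdx2 itself was not called either, at 0.199 to 1.36 CPM in homozygous libraries against 16.7 to 58.5 in wild type. The members' intervals of 2 SE reached from -0.97 to 2.05 on the log2 scale, and 25 of 36 lay within 1 unit of 0. The 0 calls therefore do not show that the members were unchanged. Unadjusted p-values fell under 0.05 for 0 members (4.59% of all genes), and DESeq2 called 0 (1.43% of all genes). The median was 0.11 with 31 of 36 values above 0, and it moved with single libraries, to 0.0065 without homozygous 2 and to 0.46 without wild type 1. Ccne2, a cyclin of S-phase entry, was at 9.89, 7.10 and 9.16 CPM in wild type and at 11.5, 11.7 and 18.5 CPM in homozygous libraries (0.67 ± 0.39, edgeR adjusted p = 0.999). It was the one member without overlap, where 8.9% of all genes were. Ccne1, the related cyclin, had a value of 0.46 ± 0.34 and E2f1 of 0.61 ± 0.47.

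Heterozygous against wild-type libraries also gave 0 calls by edgeR (0% of all genes). The members' intervals of 2 SE reached from -0.98 to 2.35 on the log2 scale, with 20 within 1 unit of 0. Unadjusted p-values fell under 0.05 for 0 members (8.93% of all genes), and DESeq2 called 0 (2.6% of all genes). The median was 0.20 with 30 values above 0. It turned to -0.011 without heterozygous 2 and was 0.54 without wild type 1. Foxm1, the transcription factor of the G2 and mitosis program, was at 44.8, 16.2 and 27.5 CPM in wild type 1, 2 and 3, at 28.2, 84.3 and 96.0 CPM in heterozygous 1, 2 and 3, and at 28.1, 51.6 and 89.7 CPM in homozygous 1, 2 and 3. Heterozygous 2 and 3 and homozygous 3 were the 3 highest libraries, while heterozygous 1 and homozygous 1 lay within the wild-type range. Its changes from wild type were 1.23 ± 0.56 in heterozygous (edgeR adjusted p = 0.562) and 0.93 ± 0.56 in homozygous libraries (edgeR adjusted p = 0.999). E2f1, the activating factor of S-phase genes, had the same 3 libraries on top, at 37.1, 41.7 and 36.8 CPM, with the other 6 at 11.8 to 21.4 CPM, and Rrm2 was also highest there, at 137, 119 and 107 CPM, with the others at 35.5 to 82.7 CPM. Ccne1 (0.75), Ccne2 (0.85) and Rrm2 (0.91) were the other members of smallest p. Plk1 was lower in all heterozygous libraries, at 79.0, 96.5 and 92.3 CPM against 108, 101 and 99.9 CPM (-0.21), the one member without overlap where 14.9% of all genes were.

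The 3 libraries with the most Foxm1 and E2f1 also had the highest sums of fibroblast markers and of niche factor transcripts. Wnt3a, a secreted niche factor, was at 1809, 3099 and 2053 CPM in heterozygous 2, heterozygous 3 and homozygous 3 and at most 196 CPM in the other 6. Of 12 fibroblast markers, 8 were higher in all heterozygous than in all wild-type libraries and 6 higher in homozygous ones. Their sum ran from 212 to 352 CPM in wild type, from 423 to 1344 in heterozygous and from 342 to 1166 in homozygous libraries. Fbln1 held most of the wild-type sums, at 206, 345 and 296 CPM. It was at 338, 141 and 190 CPM in heterozygous and at 308, 258 and 240 CPM in homozygous libraries. Vim, of the 8, was at most 3.96 CPM in wild type. It was at 35.1, 371 and 538 CPM in heterozygous and at 17.1, 36.9 and 458 CPM in homozygous libraries. The fibroblast marker Lum had 0 counts in every enhancer library and Thy1 in wild type and homozygous, and Dcn was at most 0.602 CPM. The epithelial sum ran from 6242 to 9615 CPM in wild type, 3673 to 6564 in heterozygous and 3935 to 6295 in homozygous libraries. Without these 3 libraries, a choice made after seeing the data, the median of the members was -0.20 in heterozygous and 0.09 in homozygous against wild type, and 0 members were called in either comparison. These libraries are also the highest for Foxm1, E2f1, Rrm2 and Ccne2. A lower value of those genes without them follows from the choice and is not read. The part of the fibroblast and niche transcripts in the member values was not tested. Heterozygous then has 1 library, assumed to vary like the other groups.

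Homozygous against heterozygous libraries gave 0 calls by edgeR (0% of all genes). Unadjusted p-values fell under 0.05 for 0 members (0.262% of all genes), DESeq2 called 0 (0.00794% of all genes), and there was no member without overlap (1.95% of all genes). The median was -0.13, and its direction rested on single libraries: it was 0.097 without homozygous 1 and -0.30 without heterozygous 1. Without the 3 libraries named above the median was 0.33. Heterozygous 1, the lowest of its group for 34 members, is then the only heterozygous library, so that value is not read. Plk1 had the smallest p, at 116, 113 and 91.7 CPM in homozygous libraries (0.26 ± 0.14, edgeR adjusted p = 1.00), followed by Cenpa (-0.36), Rrm2 (-0.40) and Ccne1 (-0.29). The SE given for Plk1 leaves out the pairing of same-numbered heterozygous and homozygous libraries.

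The order of the libraries in the enhancer experiment was shared by most members, while the size of the differences was not. In wild type the highest library was 1.05 times the lowest for Cdt1 and 2.82 times for Birc5, the members with the smallest and largest spread. Wild type 1 was the highest wild-type library for 34 of 36 members and wild type 2 the lowest for 33. Heterozygous 2 was the highest of its group for 34 and heterozygous 1 the lowest for 34, and homozygous 1 was the lowest of its group for 31. Mki67 was at 485, 213 and 299 CPM in wild type 1, 2 and 3, at 329, 487 and 293 CPM in heterozygous and at 219.8, 466 and 356 CPM in homozygous libraries. Ccnb1 was at 103, 36.8 and 58.7 CPM, at 53.6, 106 and 79.5 CPM and at 42.1, 90.7 and 68.4 CPM in the same order. The 3 genotypes overlapped over most of their range for both genes. Pcna ran from 87.7 to 188 CPM, Mcm2 from 71.7 to 125 CPM and Top2a from 200.04 to 495 CPM over the 9 libraries, with the lowest library heterozygous for Pcna and Mcm2 and homozygous for Top2a. Of the 5 further lists, none had a gene called by edgeR or by DESeq2 in any of the 3 enhancer comparisons, and 1 gene in all, a replication gene in heterozygous against wild type, had an unadjusted p under 0.05.

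**Figure D5:**
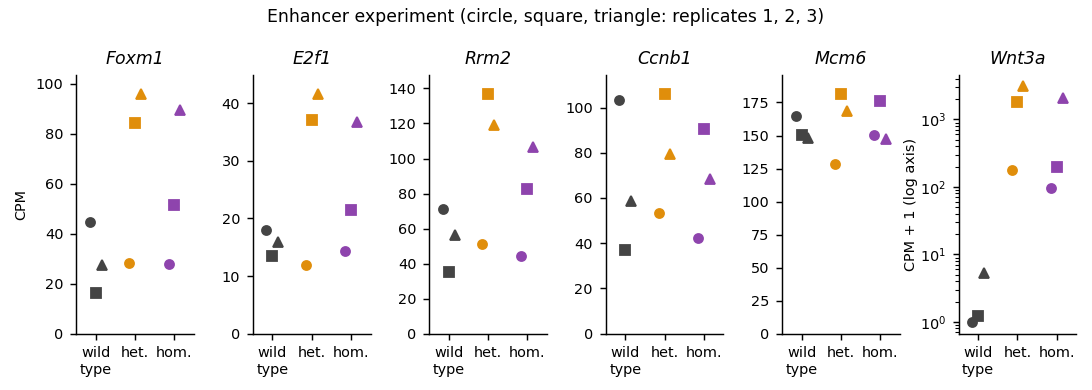
Points are CPM of 5 members and of Wnt3a (vertical axes, that of Wnt3a logarithmic as CPM + 1) in the wild-type, heterozygous and homozygous libraries of the enhancer experiment (horizontal axis), with a symbol for each replicate number. Foxm1 and E2f1 are highest in the 3 libraries that hold the most Wnt3a, which are not the 3 highest for Ccnb1 or Mcm6.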

How the data were processed

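RNA counts from 20 of the series' 44 samples were used, and the others were not analysed here. RNA was extracted with TRIzol and a column kit, and poly-A libraries were read as paired ends, per the labels' protocols. The deposited values are raw counts per gene symbol, made by the authors. The submitters' processing notes name STAR and mm10 for the enhancer libraries, and for the lines STAR, Bowtie2, Cell Ranger, mm10 and hg19 without their roles. The program and annotation behind the counts, and whether strand was used, were not given in the sources used here, and overlapping genes may share counts.

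Each experiment was fitted on all its genes and libraries with edgeR 4.0.16 in R 4.3.3 (TMM, filterByExpr with a minimum count of 10 and minimum total of 15, robust quasi-likelihood F test, two-sided). Adjusted p-values are Benjamini-Hochberg over all genes tested, and a gene is called when under 0.05. SEs were obtained as the absolute log2 fold change over the root of the F statistic. DESeq2 1.42.0, RLE and total-count scaling, no filter, leaving out each library and a replicate block were alternatives, and the fits were tested on simulated data. Replicates of a group differed beyond counting error (chi-square per degree of freedom from 21.7 to 84.1).

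The members, lists and tests were chosen with earlier results of these data known. Members were named from those called, at most 12 by smallest p, or as the 4 of smallest p where fewer than 4 were called, and some others, such as Cdc20, Foxm1, Rrm1 and Gins2, after their values were seen; Mki67, Pcna, Mcm2, Top2a and Ccnb1 are given in both experiments, and of each further list the called genes, at most 6. Gmnn, of the replication list, is not used here. One further gene that the rule would name is not reported here. Replicate numbers come from the titles. Across genes, same-numbered libraries' departures from their group means gave r between 0.336 and 0.751 for 9 gastric pairs and between 0.188 and 0.530 for 3 heterozygous and homozygous pairs, and both sets are taken as paired. For 6 pairs involving small intestine r lay between -0.088 and 0.118, and these are not. For 6 involving wild type it lay between -0.290 and 0.244, and these are not either. For differently numbered heterozygous and homozygous libraries r reached 0.213, above the lowest same-numbered pair, so that pairing is less clear.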

Additional observations from a re-analysis of the deposited data

How the results depend on the processing

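With line number as a replicate block, the HNF4A against GFP count went from 0 to 1, and with numbers 1 and 2 alone as a block the small intestine counts against CDX2 and HNF4A were 0 and 0 (4 libraries a fit) and against GFP 33. The block left the other counts at 0. DESeq2 raised the count against HNF4A from 18 to 31. Leaving out each library in turn gave counts of 1 to 29 for small intestine against GFP, 0 to 31 against CDX2, 0 to 16 against HNF4A and 5 to 18 for line number, which was 8 without the GFP lines and 0 without the HNF4A lines. Direction turned for Mcm6 in CDX2 against GFP (0.22 with all libraries, and from -0.024 without CDX2 line 2 to 0.389 without CDX2 line 1) and, without the 3 libraries richest in Wnt3a, for Foxm1 (-0.072), Ccne2 (-0.21) and Rrm2 (-0.085) in heterozygous against wild type and for Cenpa (0.058), Rrm2 (0.31) and Ccne1 (0.14) in homozygous against heterozygous. Those libraries are the highest for Foxm1, Ccne2 and Rrm2, so the fall of these genes against wild type follows from the choice. Heterozygous 2 and 3 are the highest heterozygous libraries for Cenpa, Rrm2 and Ccne1. The turns of these genes in homozygous against heterozygous are therefore not read. For Mcm6 the cause was not tested. Median shifts of all genes between scalings stayed under 0.1 on the log2 scale, and no member median changed sign with scaling.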

Other observations

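Of the further mitosis genes, Pttg1, the securin gene, stood apart after its values were seen: it was at 21.6, 16.2 and 9.56 CPM in GFP lines 1, 2 and 3 and at 15.1 and 11.6 CPM in small intestine (-0.24 ± 0.46, edgeR adjusted p = 0.723), the one of 44 with a value below 0.

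Myc and the D-type cyclin genes also differed by line number, in the test chosen after the values had been seen. Myc was at 170.1, 285 and 272 CPM in line 1 of GFP, CDX2 and HNF4A, at 59.3, 166 and 100.5 CPM in line 2 and at 19.97, 93.1 and 59.1 CPM in line 3 (line 3 minus line 2 of -1.01, edgeR adjusted p = 0.00242). Ccnd1 and Ccnd2 had line 3 minus line 1 values of -0.84 and -1.07 (edgeR adjusted p of 0.00295 and 0.00478). Mycn had a value of 1.85 for line 3 minus line 1 (edgeR adjusted p = 0.00142), the direction opposite to Myc.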
